A study of Mus musculus with 10 samples.

Results

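The 82 genes described here build the hair shaft and the sheath that moulds it, or switch those genes on. They are 31 genes listed by symbol and all 51 genes whose symbol starts with Krtap, among 17016 gene symbols in the deposited table. Every listed symbol was present. The 82 genes comprise 8 genes of the inner root sheath, 13 keratins of the hair cortex and cuticle, 51 keratin-associated protein genes, 5 genes of other shaft proteins and 5 genes of transcription factors that act in the follicle.

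The RNA came from whole skin of female mice of the strain BALB/c, aged 10 to 11 weeks. All of them had 5% imiquimod cream, which inflames the skin through the receptor TLR7, on the shaved back daily for 5 days. Over those days 5 samples came from animals that were also injected 5 times in the peritoneum with quinpirole, which activates the dopamine receptor DRD2, and 5 came from animals given vehicle. Skin without imiquimod was not analysed here, and since the labels number the samples without naming the mouse each one came from, a p-value measures the spread between samples. Between 6763367 and 8361877 reads per library were assigned to genes. Values are given as CPM, which are reads scaled to the size of the library by the submitters, and series of values run from replicate 1 to replicate 5 of each group. A single read was worth 0.119 to 0.146 CPM, and 0 reads in a library allow a level of up to 3 reads, which is 0.357 to 0.437 CPM.

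A hair is made by the follicle during its growing phase. Cells of the matrix in the bulb leave it upwards and harden either into the shaft, with its medulla, cortex and cuticle, or into the inner root sheath around it, and a resting follicle makes neither. Type I and type II keratins pair into filaments. In the shaft these filaments are embedded in keratin-associated proteins, encoded by the Krtap genes, that cross-link them through cysteine, and in the inner root sheath trichohyalin takes that place. Members of the Krtap family are sorted by composition into high sulfur, ultra-high sulfur and high glycine-tyrosine proteins.

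The libraries differed by orders of magnitude in these genes, and the difference ran through both treatment groups. The 82 genes together took from 0.00702% (Wilson 95% interval 0.00645 to 0.00765) of the reads in vehicle replicate 5 to 1.04% (1.04 to 1.05) in quinpirole replicate 1, where the intervals cover counting error only. Their share was 0.426, 0.912, 0.991, 0.125 and 0.00702 in the vehicle libraries and 1.04, 0.00742, 0.214, 0.00846 and 0.0768 in those of quinpirole, all in percent. Vehicle replicates 2 and 3 and quinpirole replicate 1 stood highest. Vehicle replicate 5 and quinpirole replicates 2 and 4 stood lowest and together form no treatment group. Of the 82 genes, 48 reached their highest level in quinpirole replicate 1, 24 in vehicle replicate 3 and 10 in vehicle replicate 2. In whole skin, fewer cells of a type and less RNA per cell cannot be told apart.

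**Figure D1:**
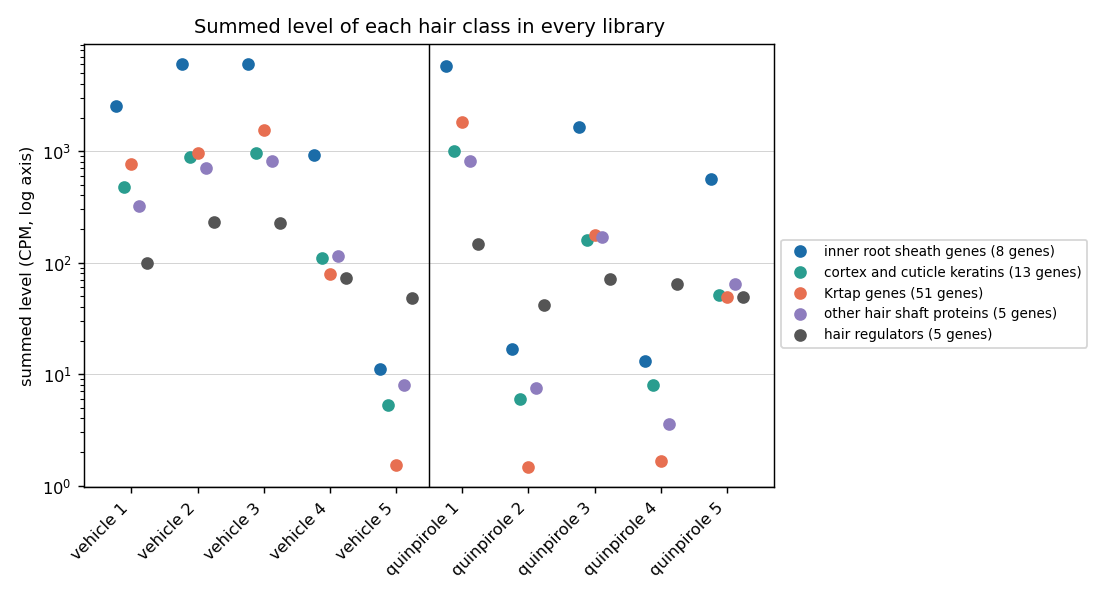
Summed level of each class of hair genes (CPM, log axis) in each of the 5 vehicle and 5 quinpirole libraries; each point is 1 class in 1 library, with classes set side by side. Vehicle replicate 5 and quinpirole replicates 2 and 4 hold almost none of the shaft and sheath genes, while the regulators stay between 41.2 and 229 CPM in every library.

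The span between the highest and the lowest library was 1251-fold for the summed Krtap genes, 539-fold for the inner root sheath genes, 229-fold for the other shaft proteins, 189-fold for the cortex and cuticle keratins and 5.56-fold for the regulators. Few genes held most reads of the lowest sums. Tchh had 66 of 80 sheath reads and Krt84 26 of 38 keratin reads in vehicle replicate 5. Prr9 had 23 of 28 reads of other shaft proteins in quinpirole replicate 4. Dlx3 and Foxn1 had 161 and 70 of 283 regulator reads in quinpirole replicate 2. Singly, Hoxc13, Msx2 and Lef1 spanned 24.4-fold, 24.5-fold and 20.8-fold. Among 65 members that reached 1 CPM in at least 5 libraries, the standard deviation within the treatment groups, on the log2(CPM + 1) scale, had a median of 2.25, against 0.231 over all 14548 genes that passed the same filter. It lay above the 99th percentile of those genes for 62 of the 65. The exceptions were Krt84 with 0.460, Foxn1 with 0.416 and Dlx3 with 0.669. The filter kept each sheath gene, keratin, other shaft protein and regulator and 34 of the 51 Krtap genes. A gene at 0 in the poorest libraries could pass through the rich ones, so the 65 are not a sample of all members.

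**Figure D2:**
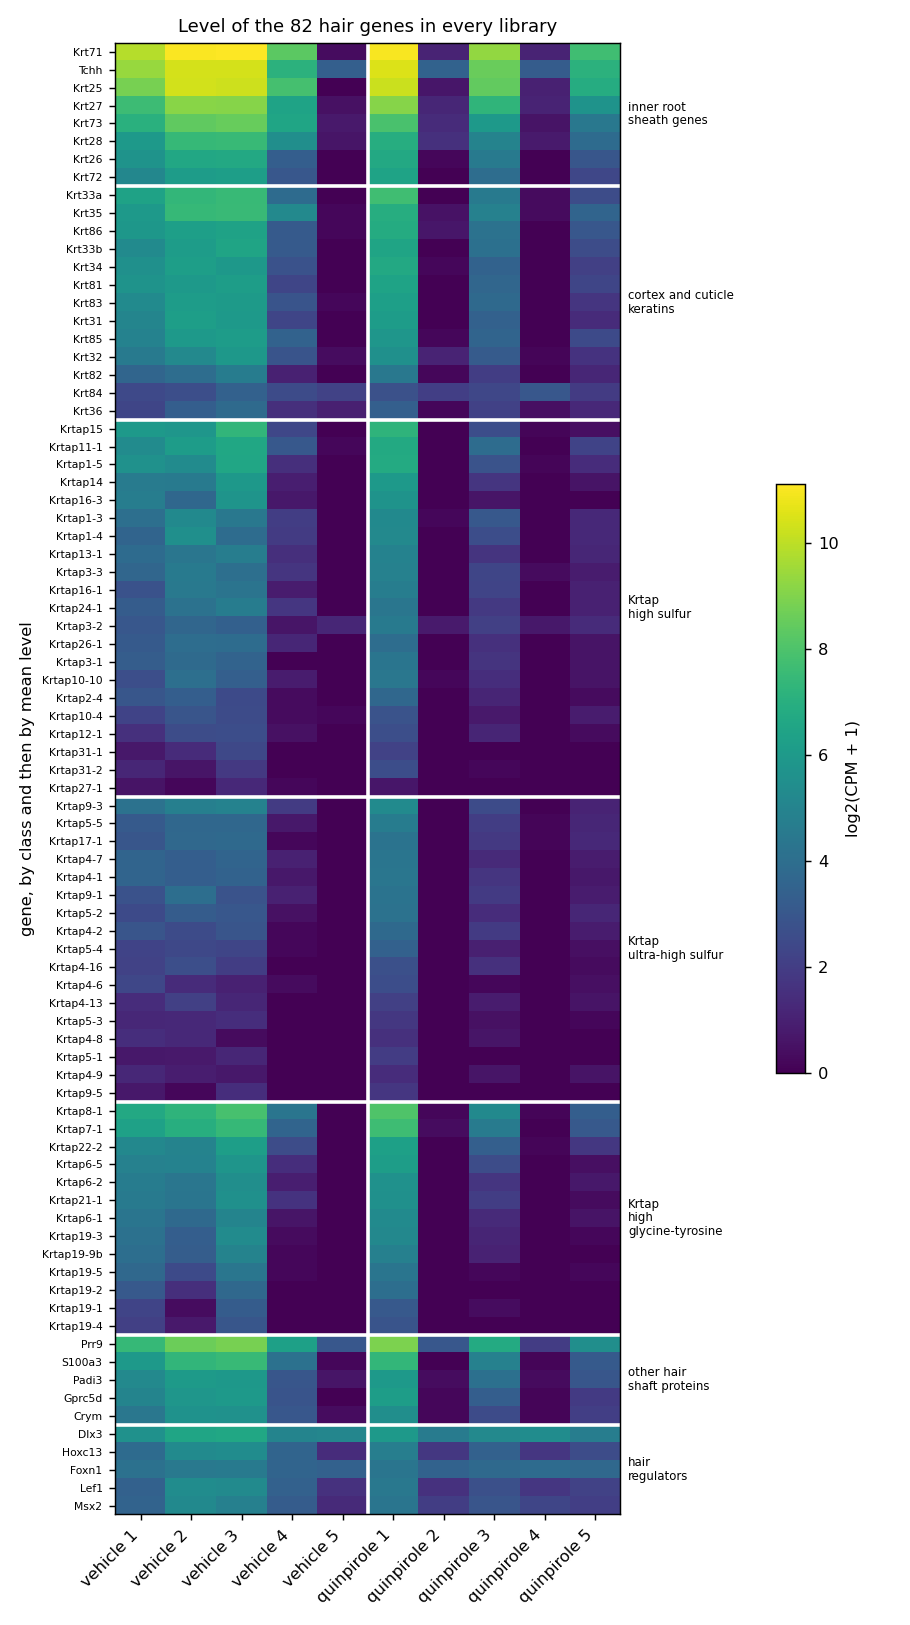
Level of the 82 genes (rows, sorted by class and then by mean level) in the 10 libraries (columns), as log2(CPM + 1) on a colour scale. Dark columns in vehicle replicate 5 and quinpirole replicates 2 and 4 run through almost all rows, while Tchh, Krt84, Prr9 and the 5 regulators hold at least 1.54 CPM in every library.

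Many of the stretches of DNA just before the starts of these genes hold a feature that the choice of members did not use. RefSeq promoter windows on GRCm38.p6 matched 68 of the 82 members, with 74 windows in all, and the 250 bases before each start were searched on both strands. The letters TATAAA, the core of a TATA box, were present in 70.3% of these windows, against 12.4% of all 32851 windows. By class they were present in 87.5% of 8 inner root sheath windows, 71.4% of 7 keratin windows and 78.3% of 46 Krtap windows. They were present in 42.9% of 7 windows of other shaft proteins, from 4 genes. Among 6 regulator windows, from 3 genes, the share was 16.7%. Windows of the same gene or of neighbouring Krtap genes are not separate observations. Restricted to the plus strand 45 to 16 bases before the start, a range chosen after the matches were seen, TATAAA was present in 37 of the 74 windows and in 2.14% of all windows. Bases after the start matched the beginning of an annotated transcript of the gene in 56 of the 74 windows. In the others the position of the start is less certain. CCAAT was present in 40.5% of members' windows and 33.8% of all windows. The motif named after LEF1 and TCF was searched for as CTTTGAA. Its second form here was CTTTGTT. Either form was present in 21.6% and 9.17% of the same windows. By class it was present in 4 of 7 keratin, 2 of 8 inner root sheath and 10 of 46 Krtap windows. It was present in 0 of 7 windows of other shaft proteins and 0 of 6 regulator windows. Each motif was counted on its own whether or not it overlapped another, and a match is a description of letters and not of binding. The last 100 bases before the start are shown for the member of each class or Krtap kind with the highest mean among those with a window, 5′ to 3′ on the gene's own strand. Capitals mark TATAAA, and also CCAAT on either strand. The starts are those of RefSeq and can differ from the genes as placed by GENCODE vM21. There the Krtap15 stretch lies within the gene, chr16:88820215-88829844. The Krt71 stretch overlaps the 5′ end of its gene, chr15:101733949-101743109.
Krt71 (chr15:101743098-101743197, minus strand): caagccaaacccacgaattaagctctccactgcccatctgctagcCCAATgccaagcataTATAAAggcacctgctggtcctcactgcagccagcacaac
Krt33b (chr11:100029869-100029968, minus strand): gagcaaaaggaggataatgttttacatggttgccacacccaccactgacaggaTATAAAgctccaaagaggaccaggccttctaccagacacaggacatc
Krtap15 (chr16:88828909-88829008, plus strand): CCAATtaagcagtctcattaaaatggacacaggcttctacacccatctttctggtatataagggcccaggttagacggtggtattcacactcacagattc
Krtap9-3 (chr11:99598107-99598206, minus strand): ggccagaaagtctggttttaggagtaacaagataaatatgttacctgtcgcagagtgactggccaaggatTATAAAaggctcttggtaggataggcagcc
Krtap8-1 (chr16:89487953-89488052, minus strand): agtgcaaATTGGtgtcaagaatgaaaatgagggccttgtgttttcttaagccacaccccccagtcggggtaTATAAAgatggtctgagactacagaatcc
Prr9 (chr3:92123948-92124047, minus strand): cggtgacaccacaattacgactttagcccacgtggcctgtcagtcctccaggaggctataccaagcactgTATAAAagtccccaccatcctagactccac
Foxn1 (chr11:78386609-78386708, minus strand): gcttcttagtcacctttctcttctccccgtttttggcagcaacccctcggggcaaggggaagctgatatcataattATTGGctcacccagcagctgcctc
The sheath, keratin, ultra-high sulfur, glycine-tyrosine and Prr9 stretches each carry TATAAA, and the Krtap15 and Foxn1 stretches do not.

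The inner root sheath genes took the most reads of the classes. Their summed level was 2532, 5998, 6029, 915 and 11.2 in the vehicle libraries and 5797, 16.9, 1643, 13 and 559 in those of quinpirole, all in CPM. Krt71, a type II keratin of the sheath whose mutations give mice a curly coat (chr15:101733949-101743109 on GRCm38), had the highest level per length of all members, 388 CPM per kb of exons. It stood at 932, 2122, 2206, 314 and 0.28 CPM in the vehicle libraries and 2059.7, 1.17, 642, 1.14 and 206 CPM in those of quinpirole. Both the highest and the lowest value belonged to vehicle libraries, and the groups overlapped. Krt25, a type I keratin of the same sheath layers (chr11:99315516-99322951), stood at 453, 1301, 1229.5, 226 and 0 CPM in the vehicle libraries and 1182, 0.583, 343, 1.02 and 116 CPM in those of quinpirole. It had 0 reads in vehicle replicate 5 and 4 reads in quinpirole replicate 2. Tchh encodes trichohyalin, the matrix protein of the sheath and medulla (chr3:93442330-93449077). It stood at 670.4, 1328, 1326, 138 and 9.23 CPM in the vehicle libraries and 1450.3, 10.2, 374, 8.39 and 139 CPM in those of quinpirole. Unlike the sheath keratins it kept 8.39 to 10.2 CPM in the 3 lowest libraries.

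Krt73, known in human as a type II keratin of the sheath cuticle, had the smallest p of the sheath genes. It stood at 132, 339, 369.9, 90.5 and 0.699 CPM in the vehicle libraries and 244, 1.6, 63.8, 0.509 and 20.7 CPM in those of quinpirole. Its level in vehicle replicate 4 was higher than in quinpirole replicate 3, an order opposite to that of Krt71 and of the class sum. Krt28 showed the same order, with 43.9 and 30.5 CPM in those libraries. Krt26, Krt27 and Krt72, which complete the class, had mean levels of 39.7, 215 and 28.9 CPM. Each of these was higher in quinpirole replicate 3 than in vehicle replicate 4.

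The cortex and cuticle keratins followed the same libraries with fewer reads. Their summed level was 481, 887, 967, 109.9 and 5.31 in the vehicle libraries and 1005, 5.97, 159, 8.01 and 51.3 in those of quinpirole, all in CPM. The type I genes of both classes lie in 1 stretch at chr11:99315516-100105626 and 8 type II genes at chr15:101459061-101802346 on GRCm38, while Krt85 was not placed here. Krt33a, a type I cortex keratin, had the highest level per length of the 12 with an annotated sequence, 32.6 CPM per kb. It stood at 83.5, 162, 177, 13.7 and 0 CPM in the vehicle libraries and 208, 0, 22.4, 0.254 and 4.91 CPM in those of quinpirole. In quinpirole replicate 1 it was at its highest, and in vehicle replicate 5 and quinpirole replicate 2 it had no read. The genes Krt31, Krt32, Krt33b, Krt34, Krt81, Krt82, Krt83 and Krt85 peaked between 24.5 CPM in Krt82 and 102 CPM in Krt34, and none of them exceeded 1.17 CPM in the 3 lowest libraries.

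Krt35 is a type I keratin that appears early, in the upper matrix and lower cortex of human hair. It stood at 60.6, 174, 183, 35.9 and 0.14 CPM in the vehicle libraries and 121, 0.437, 28.1, 0.254 and 11 CPM in those of quinpirole. Vehicle replicate 4 exceeded quinpirole replicate 3 in Krt35 and not in Krt33a. Krt86, a type II cortex keratin, stood at 57.3, 75.8, 84.5, 7.79 and 0.14 CPM in the vehicle libraries and 114, 0.583, 17.4, 0 and 6.97 CPM in those of quinpirole. Its transcripts share 43.3% of their 50-base stretches with other genes, mostly Krt81, so the division of reads between Krt86 and Krt81 is uncertain. Krt36, a type I hair keratin with the smallest p of the class, stood at 4.02, 9.11, 13.4, 1.85 and 0.979 CPM in the vehicle libraries and 9.28, 0.146, 3.41, 0.382 and 1.42 CPM in those of quinpirole. Krt84, a keratin known in human from the tongue rather than the hair cortex, was the member of this class that did not follow the rest. It stood at 4.53, 5.27, 9.96, 4.76 and 3.64 CPM in the vehicle libraries and 5.83, 3.2, 4.23, 6.99 and 2.84 CPM in those of quinpirole, and quinpirole replicate 4, among the lowest for the other keratins, was its second highest library. Krt84 was singled out after its values were seen. Its codons for cysteine made up 2.49% of the coding sequence, the lowest share of the 12 keratins with an annotated sequence, whose median was 6.56%, against 1.73% in the sheath genes.

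Of the class sums, that of the Krtap genes had the widest span, from 1.46 to 1822 CPM. On the log2(CPM + 1) scale the median standard deviation within groups was 2.01 for tested Krtap genes. It was 3.11 for sheath genes and 2.65 for cortex and cuticle keratins. This scale understates changes of low genes. Mean levels ran from 0.281 to 81.6 CPM in Krtap genes and from 28.9 to 848 CPM in sheath genes. The medians therefore do not rank the classes by fold change. The summed level of the Krtap genes was 771, 968, 1533, 79.8 and 1.54 in the vehicle libraries and 1822, 1.46, 177, 1.65 and 49 in those of quinpirole, all in CPM. In vehicle replicate 5 and quinpirole replicates 2 and 4 the 51 genes together had 11, 10 and 13 reads, in 3, 5 and 8 genes. Of the 51 genes, 50 had 0 reads in at least 1 library, with Krtap3-2 as the exception, beside 3 of 8 sheath genes, 9 of 13 keratins, 2 of 5 other shaft proteins and 0 of 5 regulators. The Krtap genes lie in 4 clusters on GRCm38, with 22 genes at chr11:99550130-99993994, 21 at chr16:88610705-89571183, 5 on chromosome 7 and 3 on chromosome 10. Cysteine codons made up a median of 20.2% of the coding sequence in 21 high sulfur genes and 37.7% in 17 ultra-high sulfur genes. Glycine and tyrosine codons together made up a median of 62.9% in 13 high glycine-tyrosine genes. More than 30% of 50-base stretches were shared with another gene in 15 of 81 members with a transcript, up to 81.3% in Krtap4-13, and Krtap10-10 overlaps the gene Gm2696 on the same strand, so values of these members are uncertain.

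Among the high sulfur genes Krtap15 had the highest level per length, 41.1 CPM per kb. It stood at 63, 56.4, 157, 4.23 and 0 CPM in the vehicle libraries and 146, 0, 5.18, 0.127 and 0.387 CPM in those of quinpirole. With 4.0% of cysteine codons it is the poorest in cysteine of the class that its family number assigns it to. Krtap11-1, a protein of the hair cortex, stood at 40.0, 69.6, 96.4, 7.4 and 0.14 CPM in the vehicle libraries and 107, 0, 14, 0 and 3.75 CPM in those of quinpirole. Krtap1-5 stood at 48.7, 40.2, 93.2, 1.85 and 0 CPM in the vehicle libraries and 110.0, 0, 6.13, 0.127 and 1.68 CPM in those of quinpirole. Vehicle replicate 1 was above vehicle replicate 2 in Krtap15 and Krtap1-5 and below it in Krtap11-1. Krtap16-3, high sulfur by its family number, has 59.3% of glycine and tyrosine codons and lies on chromosome 16 between Krtap19-9b and Krtap22-2. Its level ran from 0 to 52.3 CPM.

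The ultra-high sulfur genes had a median of 2.23 CPM per kb, against 5.71 for the high sulfur and 17.9 for the high glycine-tyrosine genes, and all 17 were highest in quinpirole replicate 1. Krtap9-3 stood at 17, 26.5, 29, 2.77 and 0 CPM in the vehicle libraries and 38.5, 0, 4.77, 0 and 1.16 CPM in those of quinpirole. Krtap5-5 stood at 7.92, 12, 12.1, 0.66 and 0 CPM in the vehicle libraries and 24.3, 0, 3.0, 0.127 and 1.29 CPM in those of quinpirole, and it shares 36.3% of its 50-base stretches with other genes. Krtap17-1, the last gene of the cluster on chromosome 11, stood at 6.92, 12.7, 13, 0.132 and 0 CPM in the vehicle libraries and 17.7, 0, 2.59, 0.127 and 1.42 CPM in those of quinpirole. In these 3 genes the 3 lowest libraries held at most 1 read each. The class as a whole had 0 reads in vehicle replicate 5 and in quinpirole replicate 2.

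The high glycine-tyrosine genes include the 2 Krtap genes with the highest levels per length, Krtap8-1 with 142 and Krtap7-1 with 99.97 CPM per kb. Krtap8-1 stood at 102, 149, 237, 18.9 and 0 CPM in the vehicle libraries and 262, 0.146, 37.2, 0.127 and 8.91 CPM in those of quinpirole. Krtap7-1 stood at 80.6, 122, 174, 11 and 0 CPM in the vehicle libraries and 201, 0.291, 23.9, 0 and 7.49 CPM in those of quinpirole. Both were highest in quinpirole replicate 1 and next highest in vehicle replicate 3. Krtap22-2 stood at 35, 30.8, 74.8, 5.02 and 0 CPM in the vehicle libraries and 78.5, 0, 9.27, 0.127 and 2.45 CPM in those of quinpirole. Krtap21-1, with the smallest p of the kind, stood at 22.9, 18.7, 46, 2.11 and 0 CPM in the vehicle libraries and 46.3, 0, 3.0, 0 and 0.258 CPM in those of quinpirole. In Krtap22-2 and Krtap21-1 vehicle replicate 1 exceeded vehicle replicate 2, the reverse of the order in the inner root sheath genes. Among the genes below the filter for testing, 3 Krtap19 genes were far lower in vehicle replicate 2 than in the other hair-rich libraries. They were named after their values were seen. Krtap19-1 stood at 3.9, 0.285 and 8.52 CPM in vehicle replicates 1 to 3 and at 7.49 CPM in quinpirole replicate 1. Krtap19-2 stood at 7.67, 1.85, 12.3 and 15.3 CPM in the same libraries. Krtap19-4 stood at 3.27, 0.712, 6.81 and 6.3 CPM there, and 0.712 CPM is 5 reads. The Krtap genes not given by library peaked between 1.44 CPM in Krtap27-1 and 71.4 CPM in Krtap6-5.

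Libraries with much hair RNA thus differed in its make-up. For every 100 CPM of inner root sheath genes, the Krtap genes had 30.4, 16.1, 25.4 and 8.72 CPM in vehicle replicates 1 to 4, and 31.4, 10.8 and 8.77 CPM in quinpirole replicates 1, 3 and 5. The 2 libraries with the highest ratio, vehicle replicate 1 and quinpirole replicate 1, belonged to different treatment groups and differed by 2.36-fold in Krtap level. Cortex and cuticle keratins varied less on this scale, from 9.18 to 19.0 CPM per 100 in the same libraries. The remaining 3 libraries held too few reads of the Krtap genes for such a ratio.

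**Figure D3:**
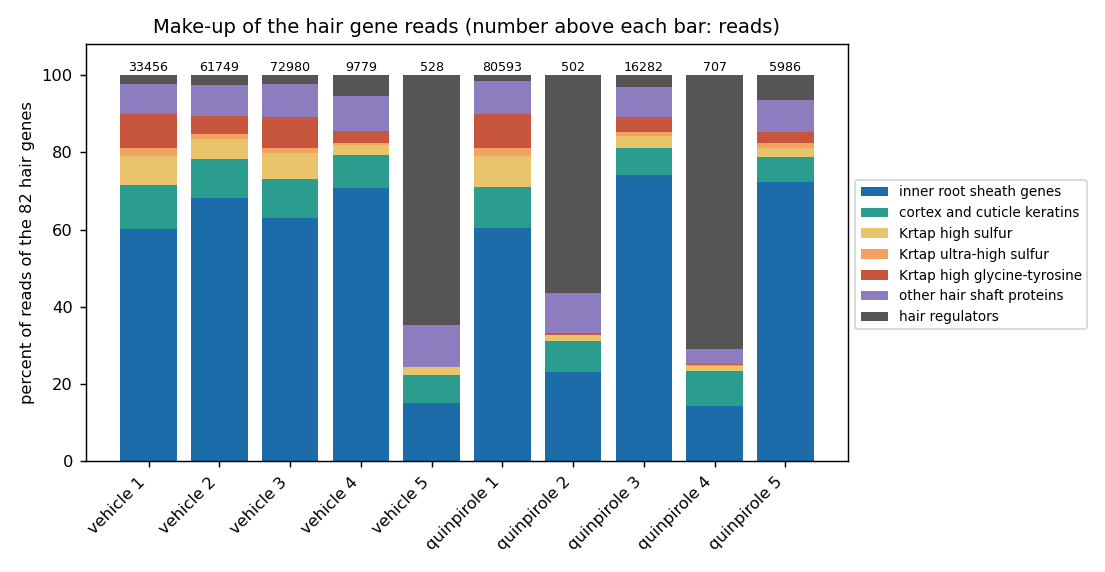
Share of each class in the reads of the 82 hair genes, in percent, per library, with the number of these reads above each bar. Krtap genes take more of the bar in vehicle replicates 1 and 3 and quinpirole replicate 1 than in vehicle replicate 4 and quinpirole replicates 3 and 5, and in the 3 libraries with 502 to 707 reads the regulators take the largest share.

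The make-up was examined gene by gene against vehicle replicate 2, for the members with at least 20 reads there, a reference chosen after the values were seen. From vehicle replicate 2 to vehicle replicate 3 the inner root sheath genes hardly moved, with a median ratio of 1.02 over 8 genes, while 10 of 10 high glycine-tyrosine genes were higher, with a median ratio of 2.40 and a range of 1.42 to 4.43. High sulfur genes had a median ratio of 0.917 over 18 genes and ultra-high sulfur genes 1.01 over 11. In vehicle replicate 1 the inner root sheath genes were at 0.414 of their level in vehicle replicate 2 and the keratins at 0.569, while the high glycine-tyrosine genes were at 1.23, with 7 of 10 higher. In quinpirole replicate 1 the ultra-high sulfur genes were at 2.02 and the high glycine-tyrosine genes at 2.52, with all 11 and all 10 higher, beside 0.972 for the inner root sheath and 0.676 for the regulators. In vehicle replicate 4 and quinpirole replicates 3 and 5 the high glycine-tyrosine medians were 0.0527, 0.148 and 0.0302. Those of the inner root sheath genes were higher there, at 0.151, 0.242 and 0.0851. Reads were few in these libraries, with 0 for Krtap19-9b in quinpirole replicate 5. All of these are ratios between single libraries with 1 shared denominator and carry no test.

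**Figure D4:**
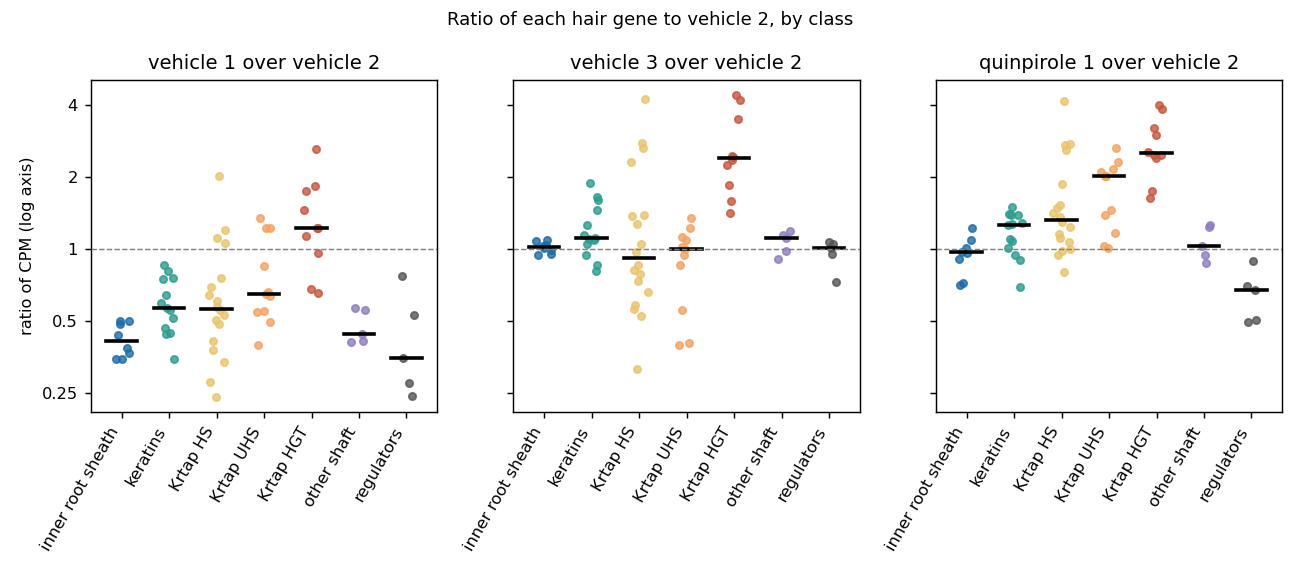
Ratio of the level of each member in vehicle replicate 1, vehicle replicate 3 and quinpirole replicate 1 to its level in vehicle replicate 2 (log axis), by class; points are genes, bars are medians and HS, UHS and HGT stand for high sulfur, ultra-high sulfur and high glycine-tyrosine. The high glycine-tyrosine genes have the highest median in all 3 panels, with 1.23, 2.40 and 2.52. The panels share 1 denominator, so they are not separate observations. Vehicle replicate 2 had 6.80 CPM of these genes per 100 CPM of inner root sheath genes. The libraries set against it had 14.6, 12.9 and 14.8 CPM.

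Position in the genome went with part of this in some pairs of libraries. Between vehicle replicates 3 and 2, the Krtap genes on chromosome 16 had a median ratio of 2.38, with 16 of 17 higher, and those on chromosome 11 a median of 0.807, with 6 of 16 higher. The high glycine-tyrosine genes in this count all lie on chromosome 16. High sulfur genes are found in both clusters, with medians of 1.40 over 7 genes on chromosome 16 and 0.730 over 8 on chromosome 11. Cysteine codons made up 4% to 12% in those 7 genes and 20.1% to 30.6% in those 8. Position and composition thus cannot be told apart here. Against vehicle replicate 2, all Krtap genes on chromosomes 16 and 11 had medians of 2.49 and 1.38 in quinpirole replicate 1. There 15 of 16 on chromosome 11 were higher as well. In vehicle replicates 1 and 4 the medians were 1.12 and 0.624, and 0.0750 and 0.0454. The order was reversed in quinpirole replicate 3, with 0.130 and 0.180, and in quinpirole replicate 5, with 0.0329 and 0.0477. Genes within a cluster share their neighbourhood, so these values are descriptions.

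Other proteins of the shaft followed the keratins. Padi3 encodes the enzyme that converts arginine to citrulline in trichohyalin and S100a3. It stood at 37, 65.2, 59.8, 6.74 and 0.559 CPM in the vehicle libraries and 61.8, 0.291, 16.4, 0.254 and 6.85 CPM in those of quinpirole. S100a3, a calcium-binding protein of the hair cuticle and a substrate of Padi3, stood at 63.7, 156, 179.5, 16.9 and 0.14 CPM in the vehicle libraries and 162, 0, 28.9, 0.127 and 7.88 CPM in those of quinpirole. Prr9, a small proline-rich protein, had the highest level per length of these 5 genes, 147 CPM per kb. It stood at 171, 385, 458, 78.3 and 6.99 CPM in the vehicle libraries and 477, 6.99, 109.6, 2.93 and 44.2 CPM in those of quinpirole, and the 3 lowest libraries still held 2.93 to 6.99 CPM. Crym, which encodes the thyroid hormone-binding protein mu-crystallin, stood at 20.4, 49.1, 48.2, 7.0 and 0.28 CPM in the vehicle libraries and 43.3, 0.146, 4.77, 0.127 and 3.23 CPM in those of quinpirole. Gprc5d, an orphan receptor found in cells of the hair cortex, stood at 31.3, 55.8, 62.5, 6.34 and 0 CPM in the vehicle libraries and 70.6, 0.146, 9.13, 0.127 and 2.71 CPM in those of quinpirole. Crym was higher in vehicle replicate 4 than in quinpirole replicate 3, and the other 4 genes had the opposite order.

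The transcription factors spanned a smaller range, and they did so unequally. Hoxc13, which binds and activates hair keratin genes, stood at 13.7, 38.9, 41, 11.1 and 1.68 CPM in the vehicle libraries and 26.3, 2.48, 9.95, 2.42 and 5.04 CPM in those of quinpirole. Foxn1, the factor missing in nude mice, whose hairs do not form properly, stood at 16.6, 21.5, 21.9, 11.1 and 9.79 CPM in the vehicle libraries and 19.1, 10.2, 13.1, 13.7 and 12.7 CPM in those of quinpirole. Foxn1 thus differed by 2.24-fold between the highest and the lowest library, where Hoxc13 differed by 24.4-fold. Msx2, a homeobox factor of the matrix, stood at 10.4, 37.7, 27.5, 8.32 and 1.54 CPM in the vehicle libraries and 18.8, 3.06, 6.54, 4.07 and 3.23 CPM in those of quinpirole. Lef1, the nuclear partner of beta-catenin in Wnt signalling in the matrix and precortex, stood at 9.93, 40.7, 39, 9.91 and 1.96 CPM in the vehicle libraries and 20.6, 2.04, 5.59, 2.42 and 3.62 CPM in those of quinpirole. Dlx3, a homeobox factor of the matrix and also of the upper layers of the epidermis, stood at 48, 90.3, 96.6, 31.7 and 32.9 CPM in the vehicle libraries and 63.3, 23.4, 36.3, 41.1 and 25.1 CPM in those of quinpirole. Hoxc13, Foxn1, Msx2 and Lef1 were lowest in vehicle replicate 5 and Dlx3 in quinpirole replicate 2. All 5 factors were higher in vehicle replicate 2 than in quinpirole replicate 1, although the Krtap sum had the opposite order. In vehicle replicate 4 the regulators came to 7.89 CPM per 100 CPM of inner root sheath genes, against 3.75 to 3.90 in vehicle replicates 1 to 3. The same ratio was 2.55, 4.35 and 8.88 in quinpirole replicates 1, 3 and 5.

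The comparison of quinpirole with vehicle asks whether the drug went with a change in these genes. It found none that passed the test. With limma at an adjusted p under 0.05 on log2(CPM + 1), 0 of 65 members were called, where 0.0206% of all 14548 genes were called, and 0 members had an unadjusted p under 0.05, where 11.4% of all genes did. The 2 groups of 5 libraries overlapped in all 65 members, where 2.2% of all genes had groups that did not overlap. With edgeR on the recovered reads 0 members were called against 0.0344% of all genes, and with DESeq2 0 against 1.51%. By these tools, 0 members had an unadjusted p under 0.05, against 11.6% and 11.8% of all genes.

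All 65 point estimates were below 0, beside 50.4% of all genes, and these members rise and fall together across libraries, so the common sign is not 65 separate observations. The median log2 fold change, quinpirole minus vehicle, was -1.41 over the 65 members and -0.0021 over all genes. With limma it was -1.73 for the inner root sheath genes, -1.60 for the keratins, -1.22 for the Krtap genes, -1.60 for the other shaft proteins and -0.90 for the regulators. On the recovered reads the median over the members was -0.80 with edgeR and -0.81 with DESeq2. The edgeR medians of the same classes were -0.94, -0.97, -0.64, -0.96 and -1.19, so the regulators had the median nearest to 0 with limma and the one farthest from 0 with edgeR. Krt71 was at 1115 ± 1015 and 582 ± 866 CPM (SD, n = 5 each), with a log2 fold change of -2.09 (SE 2.38, 95% interval -7.28 to 3.11, limma adjusted p = 0.787). Lef1 had the smallest p of the members, at 20.3 ± 18.2 and 6.85 ± 7.8 CPM (SD, n = 5 each), with a log2 fold change of -1.29 (SE 0.72, 95% interval -2.87 to 0.29, limma adjusted p = 0.53). Foxn1 had the narrowest interval, with 16.2 ± 5.65 and 13.8 ± 3.29 CPM (SD, n = 5 each) and a log2 fold change of -0.18 (SE 0.23, 95% interval -0.68 to 0.33, limma adjusted p = 0.819). In each of these 3 genes the interval held both falls and rises.

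Intervals of 6 further members, from each class that makes the shaft or regulates it, also held 0. Krt33a had a log2 fold change of -1.99 (SE 1.65, 95% interval -5.60 to 1.62, limma adjusted p = 0.694). Krtap8-1 had one of -1.83 (SE 1.72, 95% interval -5.58 to 1.92, limma adjusted p = 0.733). Krtap9-3 had one of -1.36 (SE 1.14, 95% interval -3.85 to 1.12, limma adjusted p = 0.695). The intervals of these 3 shaft genes reached falls of several log2 units. Prr9 had a log2 fold change of -1.60 (SE 1.35, 95% interval -4.55 to 1.35, limma adjusted p = 0.699). Hoxc13 had one of -1.04 (SE 0.76, 95% interval -2.70 to 0.62, limma adjusted p = 0.647). Dlx3 had one of -0.58 (SE 0.35, 95% interval -1.35 to 0.19, limma adjusted p = 0.561). The intervals of these 2 factors were narrower than those of the 4 shaft genes. Over the 65 members the adjusted p ran from 0.530 to 0.890.

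**Figure D5:**
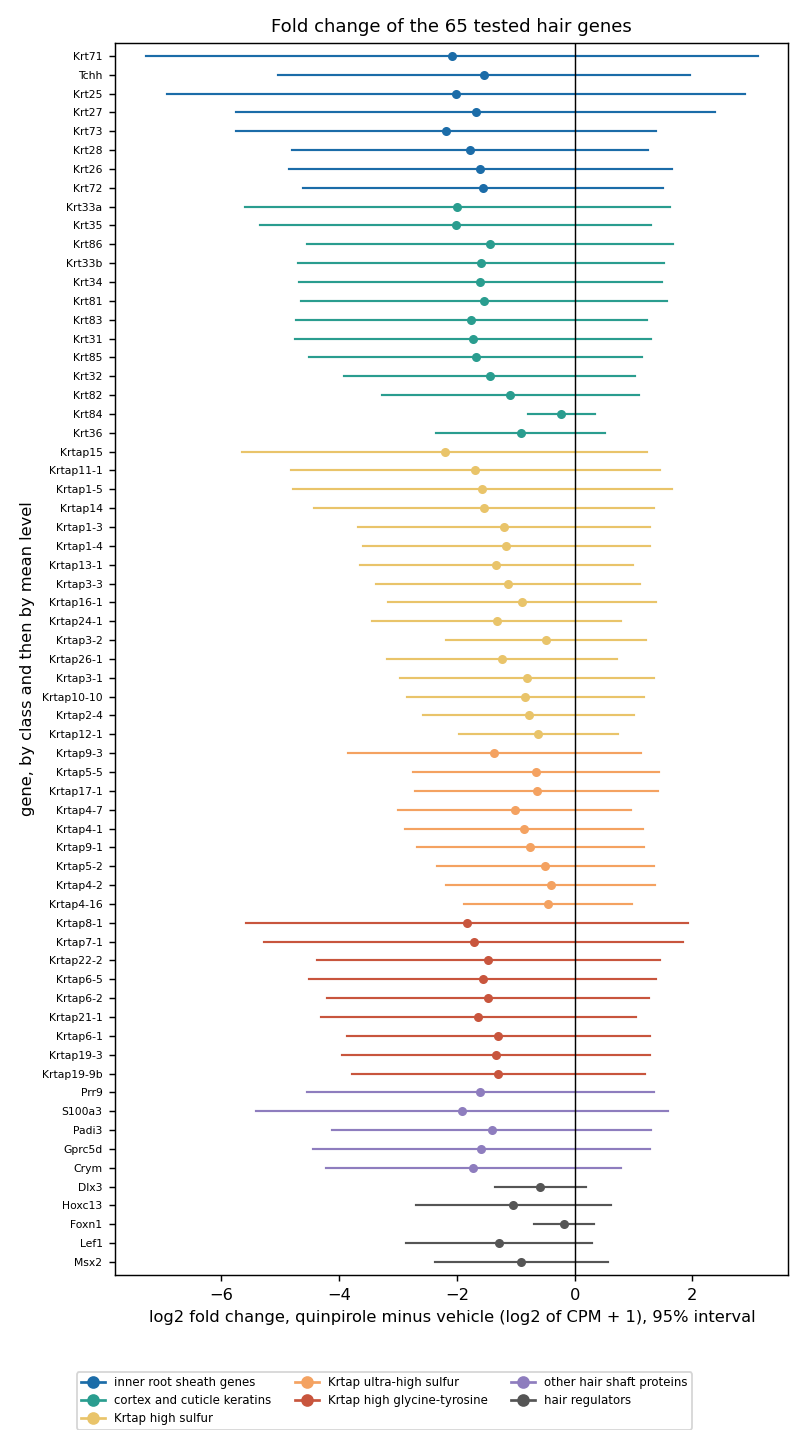
Log2 fold change of the 65 tested members, quinpirole minus vehicle on the log2(CPM + 1) scale, with 95% intervals from limma and colours by class. All points lie left of 0 and all intervals include 0, and the intervals of Krt84, Foxn1 and Dlx3 are the narrowest.

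The size of the estimates depended on single libraries. Without vehicle replicate 5 the median over the members was -2.25 and 16 of 65 had an unadjusted p under 0.05, beside 2208 of 14487 genes, and without quinpirole replicate 1 the median was -2.52 over 53 members, 17 of them under 0.05, beside 1997 of 14433 genes. Without vehicle replicate 3 it was -0.97 over 53 members, without quinpirole replicate 2 it was -0.92 over 65 and without quinpirole replicate 4 it was -0.91 over 65, with 0 under 0.05 in all 3. No member was called in any of the 10 fits that leave out 1 library, and the lowest adjusted p was 0.201. The mean summed level of inner root sheath genes was 3097 ± 2811 CPM in vehicle and 1606 ± 2435 CPM in quinpirole (SD, n = 5 each), and that of Krtap genes 671 ± 640.1 and 410.2 ± 792 CPM. The difference in the sheath sum, quinpirole minus vehicle, was -1491 CPM, and it ran from -2539 CPM without quinpirole replicate 1 to -758 CPM without vehicle replicate 3. That in the Krtap sum was -260.4 CPM, and it ran from -613 to -44.8 CPM without the same libraries.

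Other genes of the follicle were read from 5 lists beside the members, and none of their genes was called. Their counts at an unadjusted p under 0.05, and those of the cell type markers, stand beside 11.4% of all 14548 genes. In 30 tested genes of follicle signalling, 22 had a lower and 8 a higher point estimate, 3 had an unadjusted p under 0.05 and the median log2 fold change was -0.16. The smallest p was that of Igf1, a growth factor made by the dermal papilla and dermis, at 80.4 ± 11.8 and 118 ± 7.71 CPM (log2 fold change 0.56, SE 0.11, limma adjusted p = 0.126) in vehicle and quinpirole (SD, n = 5 each, here and in the values that follow). Next was Wnt5a, a Wnt ligand of the dermis and matrix, at 46.1 ± 15.6 and 22.1 ± 9.05 CPM (log2 fold change -1.03, SE 0.29, limma adjusted p = 0.232). In 22 tested follicle transcription factors, 15 were lower, 7 higher and 3 under 0.05 unadjusted, with a median of -0.12. Nfic, a factor of the nuclear factor I family, came first with 44 ± 5.58 and 61.9 ± 7.39 CPM (log2 fold change 0.48, SE 0.11, limma adjusted p = 0.177). Ovol1, a zinc finger factor of differentiating keratinocytes, was at 250.1 ± 45.2 and 193 ± 47.4 CPM (log2 fold change -0.39, SE 0.17, limma adjusted p = 0.407).

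In 16 genes of the follicle stem cells and bulge, 5 were lower, 11 higher and 6 under 0.05 unadjusted, with a median of 0.20. Col17a1, the collagen that anchors bulge stem cells, was at 152 ± 6.4 and 226 ± 61.4 CPM (log2 fold change 0.52, SE 0.16, limma adjusted p = 0.239). Nfatc1, a factor that holds these cells at rest, was at 33.3 ± 7.17 and 52.1 ± 14 CPM (log2 fold change 0.62, SE 0.19, limma adjusted p = 0.254). In 15 genes of the dermal papilla and sheath, 11 were lower, 4 higher and 1 under 0.05 unadjusted, with a median of -0.21. Alpl, the alkaline phosphatase used as a stain for the papilla, was at 5.84 ± 2.29 and 2.66 ± 1.56 CPM (log2 fold change -0.92, SE 0.33, limma adjusted p = 0.316). Tbx18, a T-box factor of the papilla, was at 5.64 ± 1.35 and 4.14 ± 1.07 CPM (log2 fold change -0.37, SE 0.19, limma adjusted p = 0.488). In 29 further keratin and shaft genes, 20 were lower, 9 higher and 8 under 0.05 unadjusted, with a median of -0.13. As a sum this list did not follow the members. It was highest in vehicle replicate 1, at 31564 CPM, and lowest in quinpirole replicate 1, at 14994 CPM. Of the 29 genes, 10 were highest in 1 of the 3 libraries richest in hair RNA. Krt79, a keratin of the upper follicle and sebaceous duct, was at 556 ± 106 and 928 ± 201 CPM (log2 fold change 0.73, SE 0.16, limma adjusted p = 0.169). Hephl1, a copper oxidase needed for normal hair, was at 124 ± 21.2 and 85.4 ± 11.1 CPM (log2 fold change -0.52, SE 0.13, limma adjusted p = 0.192). The signs in the bulge list ran mostly opposite to those of the members, whose estimates were all below 0.

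Several genes of these lists, named after their values were seen, were low in the same libraries as the members. Krt75, a keratin of the companion layer and medulla, stood at 72.2, 170.5, 189, 33.8 and 0.559 CPM in the vehicle libraries and 161, 14.6, 45, 12.7 and 18 CPM in those of quinpirole. Dsg4, the desmosomal cadherin of the hair cortex, stood at 27.5, 52.4, 70.1, 7.79 and 0.839 CPM in the vehicle libraries and 55.8, 0.146, 10.4, 0.382 and 3.62 CPM in those of quinpirole. Krt75 kept more than 12 CPM in quinpirole replicates 2 and 4, where Dsg4 was at or under 0.382 CPM. Shh, the signal made by the matrix, stood at 4.27, 12, 9.3, 4.89 and 0.28 CPM in the vehicle libraries and 5.59, 0.437, 6.68, 0.382 and 2.97 CPM in those of quinpirole. Wnt10b, a Wnt ligand of the growing follicle, stood at 4.65, 9.4, 11.7, 4.09 and 0.28 CPM in the vehicle libraries and 4.28, 0.728, 2.18, 0.254 and 1.55 CPM in those of quinpirole. Corin, a protease of the dermal papilla, stood at 4.78, 21.1, 17.2, 7.0 and 1.68 CPM in the vehicle libraries and 8.8, 1.31, 4.77, 1.53 and 3.62 CPM in those of quinpirole. Each of these 5 genes was lowest in vehicle replicate 5 and quinpirole replicates 2 and 4. Their order among the other libraries differed, and in quinpirole replicate 1, the richest in hair RNA, Shh was below quinpirole replicate 3 and Wnt10b below vehicle replicate 1. Wnt10a, by contrast, stood at 14.3, 14.2, 15.5, 14.3 and 15.7 CPM in the vehicle libraries and 11.3, 16.5, 13.5, 14.1 and 12.3 CPM in those of quinpirole, 1.46-fold between the highest and the lowest library.

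Markers of other cell types varied in their own ways. Melanocytes sit in the bulb of the growing follicle. The summed level of 7 of their marker genes was 50.3 to 479.7 CPM in vehicle and 49.2 to 306 CPM in quinpirole. All 7 were highest in 1 of the 3 libraries richest in hair RNA, and none was at 0 in any library. Of their point estimates 6 were below 0 and 1 above, with a median log2 fold change of -0.80. An unadjusted p under 0.05 was found for 0 of 7, and 0 were called. The part of melanocyte genes in the result was not tested. The summed level of 9 skeletal muscle genes was 466 to 1743 CPM in vehicle and 977 to 4663 CPM in quinpirole, with 9 of 9 point estimates above 0, 7 of 9 at an unadjusted p under 0.05 and 0 called. The muscle sum was 1743, 1055 and 4663 CPM in the 3 libraries lowest in hair RNA. In quinpirole replicates 3 and 5 it was 2185 and 2667 CPM, and in the remaining libraries 466 to 1040 CPM. Its part in the result was not tested. The 6 listed genes of interfollicular keratinocytes stayed between 14076 and 23365 CPM over all libraries. The summed levels of 6 fibroblast, 4 immune and 5 adipocyte genes ran from 4275 to 7367, from 396 to 984 and from 464 to 699 CPM. Those of 7 sebocyte genes ran from 2985 to 5608 CPM in vehicle and from 4723 to 7784 CPM in quinpirole. Of the sebocyte genes, 7 of 7 had point estimates above 0, 3 of 7 were under 0.05 unadjusted and 0 were called. Krt79 is counted in this list as well as among the further keratin and shaft genes. Under 0.05 unadjusted were 2 of 6 fibroblast, 0 of 4 immune, 1 of 5 adipocyte and 1 of 5 tested interfollicular keratinocyte genes, with 0 called.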

How the data were processed

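RNA from whole skin, depleted of ribosomal RNA, was made into directional libraries with MGIEasy kits, per the labels' protocols. Tools named in the submitters' processing notes, in no given role or order, are RSEM 1.3.0, Trimmomatic 0.38, edgeR and Bowtie2, beside the build mm10. RSEM estimates how reads split among genes of like sequence. The deposited signal values were normalised by the authors, and in each column 100% of the values were whole multiples of the smallest, within 1e-06 of a read, so reads were recovered. The values equal CPM on edgeR's TMM effective library sizes. Genes with at least 1 CPM in at least 5 of 10 libraries were tested with limma 3.58.1 (mean-variance trend, R 4.3.3) on log2 of the value plus 1, which understates changes of low genes, two-sided, without covariates, with Benjamini-Hochberg adjustment over 14548 genes. edgeR 4.0.16 (quasi-likelihood) and DESeq2 1.42.0 ran on the recovered reads. DESeq2 gave no adjusted p for 3 genes, none of them a member.

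The members and lists were chosen with earlier results of these data known. Named with their values were the 3 members with the highest mean and the member with the smallest p in each sheath, keratin or Krtap kind, all other shaft proteins and regulators, and the 2 smallest p of each further list. Krtap kinds follow family numbers. Positions, lengths, codons and shared 50-base stretches came from GENCODE vM21 (GRCm38), in which 81 members were found. The smallest chi-square per gene between libraries of a group was 6.55, far above the value near 1 that sampling noise alone gives, so each library was counted on its own. On simulated data for 14548 genes in this comparison, limma recovered 66% of 2-fold and 92% of 4-fold changes, and 4.24% of its calls were false, against 16.8% for DESeq2. These shares are for genes at large, whose median standard deviation within groups was 0.231 on the log2 scale, against 2.25 for the members, so they do not describe the recovery of changes in hair genes. The labels give no batch. Figures were drawn with matplotlib 3.10.9.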

Additional observations from a re-analysis of the deposited data

Results flagged for a closer look

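In 3 sheath keratins a vehicle library stood apart from the other 4 of its group, by the gap to its nearest neighbour divided by the range on the log2(CPM + 1) scale, with 0.710 as the 95% critical value for 5 samples. The library was vehicle replicate 5, the lowest, each time. The ratio was 0.756 for Krt25, 0.740 for Krt73 and 0.739 for Krt71. In all, 66 groups of 5 were examined for named members and class means. Chance flags about 1 in 20 independent groups, but these genes rise and fall together, so the 3 flags are not separate observations and their number cannot be set against that share. Among tested members outside the named ones, the ratio was 0.777 for Krtap19-3, 0.780 for Krtap19-9b and 0.752 for Krtap6-1 in the quinpirole group, with quinpirole replicate 1 as the highest library.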

How the results depend on the processing

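The log2 fold changes of the 28 named members kept their sign, below 0, and stayed uncalled under each of the 22 alternatives, which makes 616 values. None of the 65 to 82 members tested was called under the 12 alternatives that keep all libraries, and none had an unadjusted p under 0.05. The number of members with an unadjusted p under 0.05 ran from 0 to 17 without 1 library, and the number of called members was 0 throughout. The number of called genes over the whole table was 3 as reported. It was 5 with a pseudocount of 0.1, 6 without a filter, 5 with scaling to all genes without TMM, 5 with scaling to genes outside the hair set, 9 for limma without a trend, 5 for edgeR, 219 for DESeq2 and 0 with the replicate number as a block, and 0 to 10 without 1 library. The median log2 fold change of the members ran from -1.89 with a pseudocount of 0.1 to -0.80 with edgeR, and from -2.52 to -0.91 without 1 library, and the cause of the difference between tools was not tested. The median of the inner root sheath genes ran from -3.08 to -0.88 without 1 library. Leaving out 1 of 5 libraries can move a group mean by only part of the wide spread between libraries, so staying within that spread says nothing about stability.

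Same-numbered libraries deviated together with correlations of 0.22, -0.24, 0.19, 0.13 and 0.095, and replicate 1 alone correlated best with its own number, so the numbers were not taken to pair the samples. With the replicate number as a block, 0 genes and 0 members were called. Counts were lowest in the Krtap genes, of which 17 of 51 fell below the filter, and the 3 libraries lowest in hair RNA held 10 to 13 reads of the whole family. These counts did not follow depth, since quinpirole replicate 4, the deepest library with 8361877 reads, was among the 3.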
